A study of Mus musculus with 2 samples.

Results

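The miR-26 family is a group of miRNAs cut from 3 hairpins that lie inside introns of genes for small phosphatases of the Ctdsp family. Its members were taken by name, as the arms of miR-26a and miR-26b, and all 5 were found among the 1847 miRNAs listed for extracellular vesicles (EVs) of serum, which are small membrane-bound particles shed by cells. The EVs came from 7-week-old male mice that had all received tamoxifen (100 mg/kg, 5 consecutive days), with serum taken 3 days after the final dose. The iFIRKO mice carried Adipoq-CreERT2 and Insr flox/flox, so that tamoxifen removes the insulin receptor from cells that use the adiponectin promoter, which are adipocytes. The labels describe the control mice as WT, but the methods of the study describe them as carrying the floxed Insr alleles without Cre. Each genotype had 1 library, made from serum pooled over several mice, so the spread between animals was not measured and no test between genotypes could be made. Each interval below is a 95% interval for counting error only. A deleted Insr leaves no trace in a miRNA table, so the genotype labels could not be checked on the targeted gene. The study describes its serum EV-miRNAs, the followed-up erythroid ones included, as moving the opposite way from the tables as labelled. An exchange of the labels was not tested, and every direction below follows them as given. With the labels exchanged, each ratio would be its inverse, for example 1.06 in place of 0.945 for miR-26a-5p and 1.31 in place of 0.764 for miR-26b-5p, and a ratio within a library would pass to the other library.

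miRNAs are short RNAs that guide Argonaute proteins to complementary sites in mRNAs, mainly through the seed, bases 2 to 8 of the miRNA. A hairpin precursor is cut into a duplex of a 5p and a 3p arm. One arm, the guide, is usually kept by Argonaute, and the other, the passenger, is mostly degraded. The 5p arms are the guides of miR-26, are found in most mammalian tissues and are known to act on Ezh2, a histone methyltransferase. In mice the family is known to restrain the differentiation of adipocyte progenitors, and miR-26a is known to raise insulin sensitivity in liver. The host genes Ctdsp1, Ctdsp2 and Ctdspl encode phosphatases that act on the tail of RNA polymerase II and help to keep neuronal genes silent outside neurons.

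The mature sequences of all 5 members were found in RefSeq (GRCm38.p6). They are shown with the seed in capitals because the seed divides the family into the guides and 2 kinds of passenger.
mmu-miR-26a-5p: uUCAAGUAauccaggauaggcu
mmu-miR-26b-5p: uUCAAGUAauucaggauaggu
mmu-miR-26a-1-3p: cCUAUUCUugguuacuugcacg
mmu-miR-26a-2-3p: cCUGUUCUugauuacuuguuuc
mmu-miR-26b-3p: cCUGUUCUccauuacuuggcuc

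The 5p arms share the seed UCAAGUA, and no other of the 1679 mature mouse miRNAs in that sequence table has it. Counted from the 5′ end of miR-26a-5p, miR-26b-5p differs by C11U and C21U and is 1 base shorter. Both differences lie outside the seed. The number of mismatches that the authors allowed when they assigned reads is not given in the sources used here, so some exchange of reads between these near-identical arms was possible and was not tested. Among the 3p arms, miR-26a-2-3p and miR-26b-3p share the seed CUGUUCU, which miR-6932-3p and miR-7039-3p also hold. The seed of miR-26a-1-3p differs from it at 1 base (A4G, from miR-26a-1-3p to miR-26a-2-3p). Over all 22 positions, 6 bases distinguish the 3p arms of Mir26a-1 and Mir26a-2, so these arms report separately on the hairpins that give the same 5p arm.

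The hairpins themselves are shown with both arms in capitals, to make visible that the miR-26a-5p arm is identical in Mir26a-1 and Mir26a-2 whereas the 3p arms and the loops are not.
Mir26a-1: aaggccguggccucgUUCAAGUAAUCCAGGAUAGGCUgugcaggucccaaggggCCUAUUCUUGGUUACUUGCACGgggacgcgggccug
Mir26a-2: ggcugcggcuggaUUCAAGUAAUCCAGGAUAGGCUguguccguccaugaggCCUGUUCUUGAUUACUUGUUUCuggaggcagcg
Mir26b: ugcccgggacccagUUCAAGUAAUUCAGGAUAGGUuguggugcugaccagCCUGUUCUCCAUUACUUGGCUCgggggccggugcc

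All 3 hairpins lie on the plus strand (GRCm38), the strand of their host. Mir26a-1 is at chr9:119031796-119031885, in intron 5 of 7 of Ctdspl. Mir26a-2 is at chr10:126995530-126995613, in intron 5 of 7 of Ctdsp2, and 2 further annotated Ctdsp2 transcripts, 1 coding and 1 with a retained intron, include its position in an exon. Mir26b is at chr1:74394310-74394394, in intron 4 of 6 of Ctdsp1, only 234 bases after one exon and 245 bases before the next. Since both miR-26a hairpins give the same 5p arm, the count of miR-26a-5p cannot be divided between Ctdspl and Ctdsp2.

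The libraries are called control and iFIRKO after their labels. The control library held 3817902 counts and the iFIRKO library 2233498, which are their depths. Levels are given in counts per 1000000 (CPM). A listed miRNA with fewer than 10 counts appears only as a floor value, and no miR-26 member was at the floor.

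The family made up close to 1% of each library, and nearly all of it was guide strand. Its 5 members summed to 36663 counts in the control library, or 0.960% (exact 95% interval 0.951 to 0.970), and to 18586 counts in the iFIRKO library, or 0.832% (0.820 to 0.844). The ratio of the sums, iFIRKO to control, was 0.867 (0.851 to 0.882). The 5p arms held 99.1% of the family's counts in the control library and 98.7% in the iFIRKO library.

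The first question was how abundant each member was and whether its share of the library differed. miR-26a-5p was the leading member, with 19674 counts (5153 CPM) in the control library and 10881 counts (4872 CPM) in the iFIRKO library. It held rank 39 and rank 37 among all miRNAs of these libraries. Its ratio was 0.945 (0.923 to 0.968), so the libraries differed by more than counting error, but by little.

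miR-26b-5p, the guide from Ctdsp1, had 16671 control counts (4367 CPM) and 7455 iFIRKO counts (3338 CPM), at ranks 41 and 42. The ratio of 0.764 (0.744 to 0.786) was further below 1 than that of miR-26a-5p, and the intervals of these guides did not overlap.

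The passenger arms were far less abundant, and 2 of the 3 had ratios well above those of the guides. miR-26a-2-3p, from Ctdsp2, was the highest of the 3p arms, with 211 counts (55.3 CPM) in the control library and 123 counts (55.1 CPM) in the iFIRKO library. Its ratio was 0.996, and the interval (0.791 to 1.25) held 1. miR-26b-3p went from 74 counts (19.4 CPM) in the control to 85 counts (38.1 CPM), which gave a ratio of 1.96 (1.42 to 2.72).

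miR-26a-1-3p, from Ctdspl, was the lowest member, with 33 counts (8.64 CPM) and 42 counts (18.8 CPM). Its ratio of 2.18 (1.35 to 3.54) was the highest in the family and also the least precise. The order of levels was the same in both libraries, from miR-26a-5p over miR-26b-5p, miR-26a-2-3p and miR-26b-3p down to miR-26a-1-3p. The exact intervals of neighbouring levels did not overlap in the control library. In the iFIRKO library those of miR-26b-3p (30.4 to 47.1 CPM) and miR-26a-2-3p (45.8 to 65.7 CPM) did overlap.

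**Figure D1:**
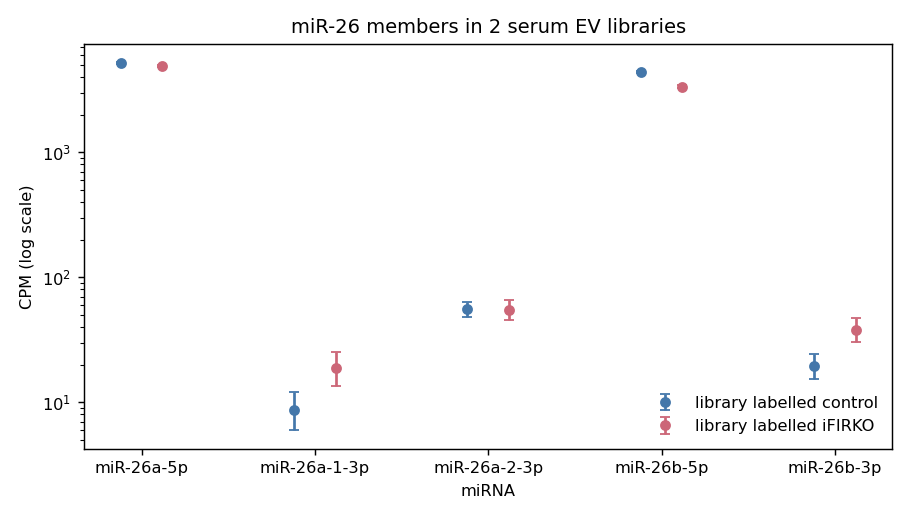
CPM of each miR-26 member (log axis) in the control library (blue) and the iFIRKO library (red), 1 point per library, with bars for the exact 95% Poisson interval. Both 5p arms lie at 3338 CPM or more, where the bars are smaller than the points, and the 3p arms lie between 8.64 and 55.3 CPM, with only miR-26a-1-3p and miR-26b-3p higher in the iFIRKO library beyond their bars.

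At the 1.5-fold threshold of the study, 2 of the 5 members, miR-26a-1-3p and miR-26b-3p, were higher in the iFIRKO library and 0 were lower. Over all 1847 miRNAs, 66.3% passed this threshold upwards and 3.03% downwards, so being higher was common in the tables as labelled, and being lower would be with the labels exchanged. The median log2 ratio was -0.01 for the members and 0.88 for all miRNAs. Ratios in these libraries moved with abundance, and the members are therefore set beside miRNAs of like mean count. In the class with a mean count from 10 to 100, 76.7% of 1350 miRNAs were over 1.5-fold higher, and the median ratio was 2.01. miR-26a-1-3p and miR-26b-3p stood near the middle of it, above 59.0% and 47.9% of the class. miR-26a-2-3p stood lower in its own class (100 to 1000 counts, 302 miRNAs, median ratio 1.44), above 21.5% of it. In the class over 1000 counts, with 118 miRNAs and a median ratio of 0.952, miR-26a-5p was above 47.5% and miR-26b-5p above 26.3%. In that class 9.32% of miRNAs were over 1.5-fold lower, and neither 5p arm was. Both 5p ratios were also below 1 under all 4 other scalings tried. These scalings divide ratios by 0.998 to 1.81, so they could hardly have raised a ratio above 1. The ratios of miR-26a-1-3p and miR-26b-3p were above 1 under all 4. With TMM scaling, which divides every ratio by 1.81, neither 3p arm passed 1.5-fold and 3 members were over 1.5-fold lower (miR-26a-5p, miR-26b-5p and miR-26a-2-3p, which fell to 0.551).

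**Figure D2:**
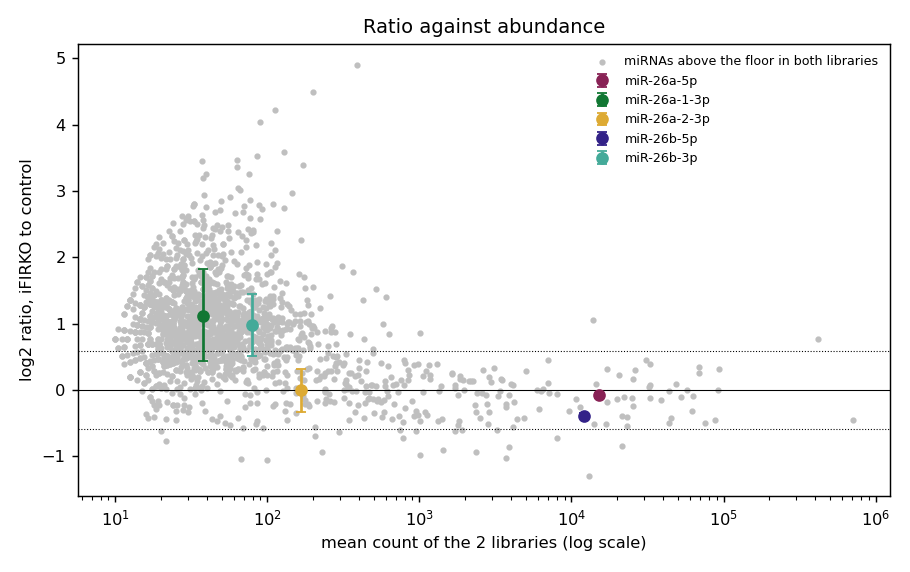
Log2 ratio of the iFIRKO library to the control library against the mean count of both libraries (log axis), for miRNAs above the floor in both (grey) and the 5 miR-26 members (coloured, with 95% counting intervals). Dotted lines mark 1.5-fold in each direction. The 3p arms miR-26a-1-3p and miR-26b-3p lie inside the cloud of low-count miRNAs, whose median ratio was 2.01, and the 5p arms lie with the abundant miRNAs near or below 0.

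A ratio between members of the same library does not depend on depth or scaling, and these ratios were compared next. miR-26a-5p was the more abundant guide in both libraries. The ratio of miR-26a-5p to miR-26b-5p was 1.18 (1.16 to 1.20) in the control library and 1.46 (1.42 to 1.503) in the iFIRKO library, a change of 1.24-fold (1.19 to 1.28) towards miR-26a-5p. Thus guides that share a seed shifted in their proportions by more than counting error.

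The passenger arms also shifted in their proportions. In the control library, miR-26a-2-3p from Ctdsp2 outnumbered miR-26a-1-3p from Ctdspl by 6.39 to 1 (4.42 to 9.53), and in the iFIRKO library by 2.93 to 1 (2.05 to 4.26). The second ratio was 0.458 of the first (0.267 to 0.785). Likewise, the ratio of miR-26a-2-3p to miR-26b-3p went from 2.85 (2.18 to 3.77) to 1.45 (1.09 to 1.93), a change to 0.507 (0.340 to 0.758). The ratio of miR-26b-3p to miR-26a-1-3p was 2.24 (1.47 to 3.49) and 2.02 (1.38 to 3.00), and the interval of its change (0.499 to 1.62) held 1. Hence miR-26a-2-3p was the 3p arm that stood apart from the other 2. It is also in a higher abundance class (100 to 1000 counts, median ratio 1.44) than they are (10 to 100 counts, median ratio 2.01). The part of abundance in these shifts was not tested.

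Arms of 1 hairpin start from the same precursor, so their ratio was compared as well. For Mir26b, the 5p arm had 225 counts per count of the 3p arm (179 to 287) in the control library and 87.7 (70.8 to 110) in the iFIRKO library. The latter was 0.389 of the former (0.281 to 0.539). For miR-26a-5p against miR-26a-1-3p the values were 596 (424 to 866) and 259 (192 to 360), a change to 0.435 (0.267 to 0.703). Against miR-26a-2-3p they were 93.2 (81.4 to 107.3) and 88.5 (74.1 to 106.5), and the interval of the change (0.755 to 1.20) held 1. Against both 3p arms of miR-26a together, the total that a shared 5p arm can be set against, the ratio was 80.6 (71.1 to 91.9) and 65.9 (56.5 to 77.4), a change to 0.818 (0.668 to 1.004). Only Mir26b therefore gives a 5p to 3p ratio that belongs to a single gene and differed beyond counting error. Its arms are in unlike abundance classes, the 5p arm over 1000 counts (median ratio 0.952) and the 3p arm at 10 to 100 counts (median ratio 2.01). The part of abundance in this fall was not tested.

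These shifts were set beside all 554 hairpins whose arms were both above the floor. Over these, 25.3% had a 5p to 3p ratio that was over 1.5-fold lower in the iFIRKO library and 20.0% one that was over 1.5-fold higher, with a median change of 0.963. Mir26b had a larger fall than all but 39 of them, and Mir26a-1 than all but 55. For Mir26a-2 the change of 0.949 was close to the median. In a set chosen after the values were seen, the 61 hairpins whose 5p arm was at least 10 times the 3p arm in both libraries, 47.5% were over 1.5-fold lower, 51 of 61 were lower at all, and the median change was 0.675. All 3 miR-26 hairpins are in that set, where 3 hairpins had a larger fall than Mir26b and 7 a larger fall than Mir26a-1. A fall was thus common among hairpins whose 5p arm far exceeded the 3p arm.

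**Figure D3:**
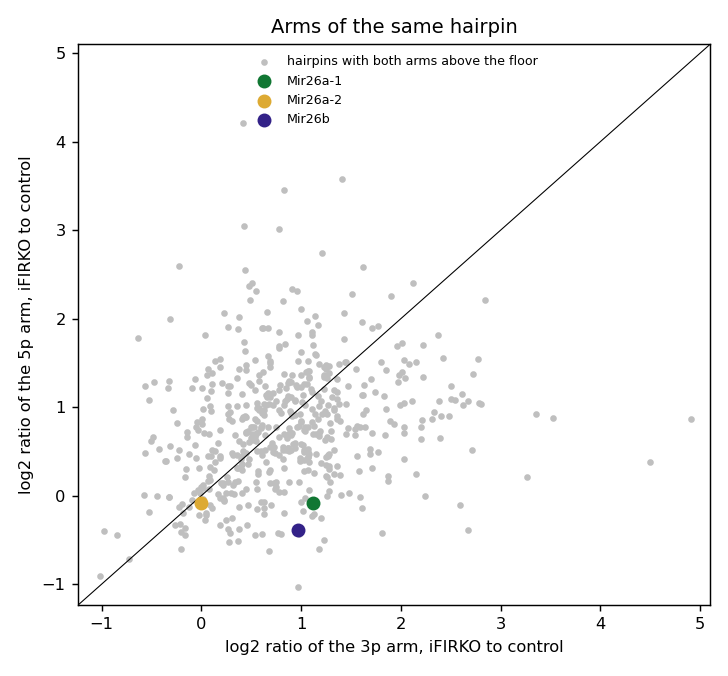
Log2 ratio of the iFIRKO library to the control library for the 5p arm (y axis) against the 3p arm (x axis) of the same hairpin, 1 point per hairpin with both arms above the floor. Mir26a-2 lies on the diagonal of equal change, and Mir26a-1 and Mir26b lie to the right of it, with 3p arms about 1 log2 unit higher (1.12 and 0.97) and 5p arms slightly lower (-0.08 and -0.39). The 5p value of Mir26a-1 and Mir26a-2 is the same measurement.

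Other miRNAs with the passenger seed CUGUUCU were few and rare. miR-6932-3p had 17 counts in the control library and 41 in the iFIRKO library, a ratio of 4.12 (2.29 to 7.74). miR-7039-3p had 17 and 23 counts, with a ratio of 2.31 (1.18 to 4.61). Together with the values above, the holders of this seed ranged in ratio from 0.996 (miR-26a-2-3p) to 4.12. The intervals of miR-26b-3p, miR-6932-3p and miR-7039-3p overlapped one another. That of miR-26a-2-3p, which is in a higher abundance class, overlapped only that of miR-7039-3p.

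For comparison with families of the same kind, the Pank miRNAs and miR-30 were examined. miR-103 and miR-107 are, like miR-26, encoded within introns of a family of related genes, the Pank genes for pantothenate kinases, which make coenzyme A. Their guides are the 3p arms, and both were slightly higher in the iFIRKO library on the deposited scale but lower with miR-148a-3p as reference, the median of ratios or TMM scaling. miR-103-3p had 5121 and 3140 counts, a ratio of 1.05 (1.002 to 1.10), and miR-107-3p had 3459 and 2310 counts, a ratio of 1.14 (1.08 to 1.20). Neither interval overlapped that of a miR-26 guide. The ratio between these guides, miR-103-3p to miR-107-3p, was 1.48 in the control library and 1.36 in the iFIRKO library, a change to 0.918 (0.857 to 0.984), smaller than the 1.24-fold change between the miR-26 guides. Their passenger 5p arms were all rare, between 12 and 40 counts, with ratios of 2.69 (miR-103-1-5p), 1.37 (miR-103-2-5p, whose interval of 0.584 to 3.13 held 1) and 2.74 (miR-107-5p). With 76.7% of miRNAs of 10 to 100 counts over 1.5-fold higher, 2 of 3 such passengers was no more than the share of their abundance class.

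On the deposited scale, the closer match in direction was the miR-30 family, abundant guides of the 5p arm. All 5 of its 5p arms had ratios below 1, from 0.721 (miR-30b-5p) to 0.993 (miR-30d-5p), and 0 of 5 passed 1.5-fold. These arms belong to the class over 1000 counts, where 70 of 118 miRNAs were lower and 9.32% were over 1.5-fold lower. With miR-148a-3p as reference, the median of ratios or TMM scaling, the Pank guides were below 1 as well. miR-30e-5p, at 0.754 (0.739 to 0.769), overlapped the interval of miR-26b-5p. miR-30a-5p, at 0.916 (0.901 to 0.930), overlapped that of miR-26a-5p. The miR-30 list holds no 3p arms. In the hairpin set, miR-30c-1-3p (49 and 50 counts) and miR-30c-2-3p (91 and 105 counts) had log2 ratios of 0.80 and 0.98. Those of miR-30a-3p and miR-30e-3p were -0.22 and -0.20. The log2 change of the 5p to 3p ratio was -1.24 for Mir30c-1 and -1.42 for Mir30c-2, beside -1.36 for Mir26b. For Mir30a and Mir30e it was 0.10 and -0.21.

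**Figure D4:**
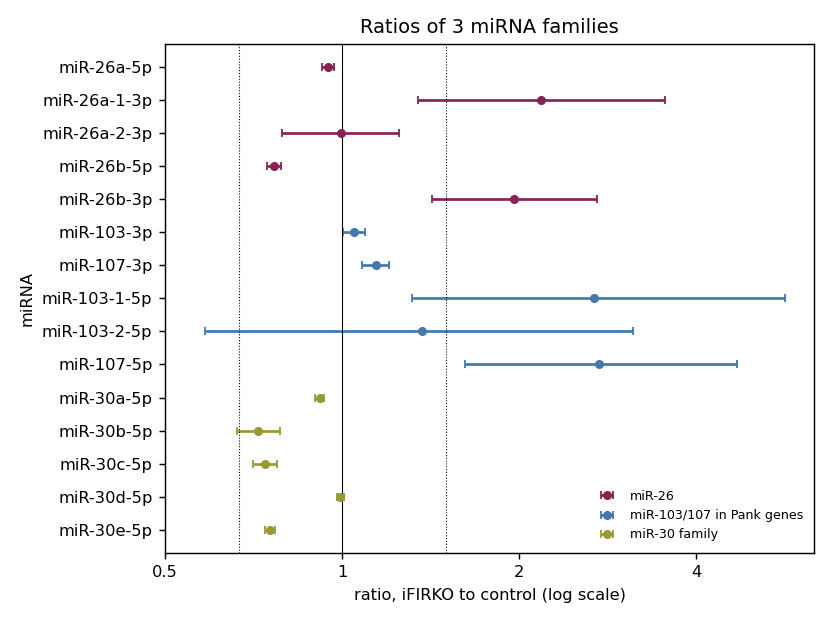
Ratio of the iFIRKO library to the control library (log axis) with 95% counting intervals for the miR-26 family, the Pank miRNAs and the miR-30 family. The solid line marks a ratio of 1 and dotted lines mark 1.5-fold. The guides of all 3 families lie between 0.721 and 1.14, and the ratios past 1.5-fold belong to rare passenger arms with wide intervals.

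The miRNAs whose level in both libraries was nearest to that of a miR-26 guide were found by the distance between log2 CPM values, which uses 2 libraries only. For miR-26a-5p, the 5 nearest were miR-92a-3p (4656 and 4977 CPM, distance 0.15), miR-27b-3p, miR-486a-5p, let-7g-5p and miR-342-3p, with ratios from 0.697 to 1.25. For miR-26b-5p they were miR-150-5p (4033 and 3362 CPM, distance 0.12), miR-133a-3p, let-7g-5p, miR-27a-3p and miR-92a-3p, with ratios from 0.697 to 1.07. Known sources of these neighbours include red cells (miR-486a-5p), lymphocytes (miR-150-5p) and striated muscle (miR-133a-3p), so a level like that of miR-26 was reached by miRNAs of unlike tissues.

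Among 13 other miRNAs known from adipocyte differentiation or insulin signalling, 8 were higher and 5 were lower in the iFIRKO library on the deposited scale. Over all miRNAs 88.1% were higher, and over those with a mean count over 1000, 40.7%. Of the 13, 0 passed 1.5-fold in either direction. Over all miRNAs 66.3% passed it upwards and 3.03% downwards. Of the 118 miRNAs with a mean count over 1000, only 3 passed it upwards and 11 downwards. With miR-148a-3p as reference or the median of ratios 5 of the 13 were higher and 8 lower, and with TMM scaling 0 and 13. The median log2 ratio of the 13 was 0.02. The lowest was miR-145a-5p, a miRNA of smooth muscle and stromal cells, with 2569 and 1091 counts and a ratio of 0.726 (0.676 to 0.780). The highest was miR-33-5p, which lies in an intron of the sterol regulator Srebf2, with 269 and 231 counts and a ratio of 1.47 (1.23 to 1.76). Both miR-26 guides fell inside this range.

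Markers of other cells also moved between the libraries. All 6 erythroid miRNAs were lower in the library labelled iFIRKO, a direction that rests on the labels doubted above. Their summed share was 30.5% in the control library and 22.2% in the iFIRKO library. Of this, miR-16-5p alone made up 26.0% and 19.1%, so the sum mostly follows 1 miRNA. All 5 platelet and leukocyte miRNAs were lower as well, summing to 7.62% and 6.17%. Within that sum, miR-126a-3p, which is also an endothelial miRNA, made up 2.79% and 1.98% of the libraries. Except for miR-144-5p, these erythroid, platelet and leukocyte miRNAs belong to the class over 1000 counts. In that class 70 of 118 miRNAs were lower, against 220 of 1847 over all. All 4 liver miRNAs were higher on the deposited scale, summing to 12.1% and 20.2%, but lower with TMM scaling. On the deposited scale 88.1% of all miRNAs were higher, so 4 of 4 is near that share, whereas it was 40.7% of the class over 1000 counts, to which 3 of the 4 belong. None of these 15 miRNAs was at the floor. Their part in the miR-26 values was not tested, and because each level is a share of its library, fewer vesicles of a cell type and less miRNA per vesicle cannot be told apart.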

How the data were processed

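Small RNA from serum EVs of 1 control and 1 iFIRKO pool was turned into sequencing libraries (QIAseq miRNA kit), run on a NextSeq500 and analysed by the authors on the GeneGlobe Data Analysis Center. The submitters' processing notes name mm10. The aligner, the miRNA release and the use of molecular identifiers are not given in the sources used here. The deposited tables hold 1 normalized signal per miRNA, which the authors made by dividing a whole count by 1 constant per library: 100% of values were whole multiples within 0.1 counts. Counts and depths (3817902 and 2233498) were recovered from this signal. No value from 2 to 9 counts was present, so the lowest value was read as a floor under 10 counts, or 2.62 CPM (control) and 4.48 CPM (iFIRKO). A count of 3 corresponds to 0.786 and 1.34 CPM.

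Intervals of ratios and shares are Clopper-Pearson intervals (scipy 1.17.1), those of levels are exact Poisson intervals, and those of changes in a within-library ratio are exact conditional intervals of the odds ratio. They cover counting error only. The functions were tested on simulated data. Hairpin arms were paired through the RefSeq table of GRCm38.p6, and introns were read from GENCODE M21 on GRCm38, the build that mm10 names. Other scalings were equal totals, miR-148a-3p as reference, the median ratio over miRNAs whose mean count reached 100, and TMM factors (edgeR 4.0.16, R 4.3.3). A pseudocount of 1 CPM, count filters of 10 and 100, and a 2-fold threshold were also tried. Members, marker lists and comparison families were chosen with earlier results of these data known. The named miRNAs were the members, the 5 nearest in level to each guide, the comparison families, and the highest and lowest of the list for adipocytes and insulin. The hairpin set with a 10-fold excess of the 5p arm and the miRNAs with a shared passenger seed were added after the values were seen.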

Additional observations from a re-analysis of the deposited data

How the results depend on the processing

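Leaving out libraries in turn was impossible with 1 library per genotype. No paired analysis was possible because each genotype had a single library and no replicate number to share. Equal totals, which divides ratios by only 0.998, and 1 CPM added left every ratio for which they were run within its counting interval. The floor at 10 counts could change no ratio, since no member was at the floor. With miR-148a-3p as reference the ratio was 0.812 for miR-26a-5p, 0.656 for miR-26b-5p and 0.744 for the summed family, and 1 member was over 1.5-fold lower. With the median of ratios these were 0.786, 0.636 and 0.721, again with 1 member lower. With TMM factors they were 0.523, 0.423 and 0.479, and the 3p arms had 1.20 (miR-26a-1-3p), 0.551 (miR-26a-2-3p) and 1.09 (miR-26b-3p), so that 0 members were over 1.5-fold higher and 3 were lower. A scaling divides every ratio by 1 factor, which accounts for these shifts. Without miR-26a-5p the summed family had a ratio of 0.775. A 2-fold threshold left 1 member higher, and a filter at a mean count of 100 left 0, since it removes both 3p arms concerned. The within-library ratios cannot change with scaling. Depth limits the 3p arms most, as 33 counts give miR-26a-1-3p an interval from 1.35 to 3.54.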
